A study of Mus musculus with 8 samples.

Results

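The exocyst is the protein complex that tethers secretory vesicles to the plasma membrane, and its genes were taken by name: Exoc1, Exoc2, Exoc3, Exoc4, Exoc5, Exoc6, Exoc6b, Exoc7 and Exoc8, 9 of the 22795 genes listed in the count tables of both stages. RNA was sequenced from the cortex of mouse embryos at E11.5 and at E12.5, with 2 Mboat7+/- and 2 Mboat7-/- embryos at each stage and 8 cortices in all. Both genotypes carry the constitutive Mboat7 knockout allele, on a C57BL/6N background, so the controls had 1 null copy and no wild-type cortex was sequenced. Mboat7 encodes the acyltransferase LPLAT11, which places arachidonic acid on phosphatidylinositol, the precursor of PI(4,5)P2. The E11.5 and E12.5 libraries came from different sequencing providers and platforms, so stage and provider cannot be told apart. Levels at the stages are set side by side with no test. Where the genotype difference is tested for a change between the stages, stage and provider cannot be told apart either. Each level below is in CPM, the count scaled to the normalized size of the library, each difference is a log2 fold change of the cortices labelled Mboat7-/- relative to the Mboat7+/- cortices, and a gene was called at an FDR under 0.05.

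A vesicle that leaves the Golgi apparatus or a recycling endosome is held at the plasma membrane by the exocyst before SNARE proteins fuse it. The complex is built from a pair of subcomplexes. Exoc1 to Exoc4 (Sec3, Sec5, Sec6 and Sec8) form the first, and Exoc5 (Sec10), Exoc6 or its paralog Exoc6b (Sec15), Exoc7 (Exo70) and Exoc8 (Exo84) form the second. Exoc1 and Exoc7 bind PI(4,5)P2, which places the complex on the inner face of the membrane. Exoc2 and Exoc8 bind Ral GTPases, and Exoc6 and Exoc6b bind Rab11 and related GTPases on the vesicle. E-cadherin is among the cargoes that the exocyst delivers, and radial glial cells, the progenitors that line the ventricle of the embryonic cortex, hold on to the apical surface by cadherin junctions. These tables measure the RNA of the subunits, not the proteins, the assembled complex or its place in the cell.

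At E11.5, Mboat7 had 700 and 876 counts in the controls, the Mboat7+/- cortices, against 1103 and 860 with the label Mboat7-/-. As CPM, these were 32.3 and 33.1 against 39.0 and 34.8, so the E11.5 libraries labelled Mboat7-/- were both above the controls (log2 fold change 0.17, standard error 0.11, and 0.527 as the adjusted p in the quasi-likelihood test of edgeR). At E12.5, Mboat7 was at 35.5 and 36.2 CPM in the Mboat7+/- cortices and at 31.7 and 32.2 CPM in those labelled Mboat7-/- (log2 fold change -0.17, standard error 0.10, adjusted p = 0.958). The RNA level did not separate the genotypes as the labels name them at E11.5. At E12.5 it was lower without overlap, as 15.2% of all genes tested were, and the difference did not pass the test. Every direction below rests on the labels.

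Each cortex gave between 20799311 and 28189771 counts. The markers of cortical radial glia, summed over 10 genes, lay between 3620 and 4600 CPM in the 8 cortices with none at 0, so the labelled tissue was found in every library. Summed markers of other cell types did not overlap between the genotypes in some lists: at E11.5, 10 mesenchyme markers summed to 1640 and 1580 CPM in the Mboat7+/- cortices and to 1900 and 2040 CPM in those labelled Mboat7-/-, and the 8 blood genes listed at that stage to 6960 and 5240 against 3640 and 3880 CPM. Lower without overlap at E11.5 were 5 markers of intermediate progenitor cells (498 and 518 against 371 and 483 CPM). So were 8 ventral telencephalon markers (518 and 484 against 397 and 481 CPM), while 6 endothelium markers were higher (247 and 226 against 269 and 260 CPM). The 8 neuron markers, at 1840 and 2110 against 1220 and 1950 CPM, overlapped, and the lowest sum was that of E11.5 Mboat7-/- replicate 1. At E12.5, the sums of mesenchyme markers (529 to 713 CPM) and neuron markers (3310 to 3540 CPM) overlapped between genotypes. The sums of blood genes also overlapped (4260 and 6320 against 4330 and 2990 CPM). Of these 9 blood genes, 6 had an unadjusted p under 0.05 in edgeR, all lower, beside 4.11% of all genes. Their list had a median log2 fold change of -0.573. At E11.5, 6 of 7 blood genes tested (all lower) and 8 of 10 mesenchyme markers (all higher) had such a p, beside 13.8% of all genes. Endothelium (219 and 214 against 225 and 238 CPM) and microglia markers (37.0 and 31.4 against 38.7 and 43.2 CPM) did not overlap at E12.5. Nor did the intermediate progenitor markers, now higher in the cortices labelled Mboat7-/- (530 and 532 against 534 and 585 CPM). Xist, the RNA of the inactive X chromosome, was at 826 CPM in E11.5 Mboat7+/- replicate 1 and at no more than 0.0884 CPM in the other cortices. The part of these differences in the values of the exocyst genes was not tested, and in whole tissue fewer cells of a type and less RNA per cell cannot be told apart.

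The 9 genes lie on 7 chromosomes of the mouse genome build GRCm38, with Exoc4 and Exoc6b on chromosome 6 and Exoc2 and Exoc3 on chromosome 13. Exoc4 spans chr6:33249085-33973979 on the plus strand and is the longest of the genes, while Exoc8 spans chr8:124893108-124897705 on the minus strand and has a single transcript length of 4598 nt. Exoc6 lies at chr19:37550418-37684059 on the plus strand and its paralog Exoc6b at chr6:84618487-85069513 on the minus strand. Exoc2 is at chr13:30813919-30974093 and Exoc3 at chr13:74169488-74208732, both on the minus strand. Exoc1 is at chr5:76529311-76570294 on the plus strand, Exoc5 at chr14:49004090-49066653 and Exoc7 at chr11:116288001-116307233, the last pair on the minus strand. Exons of Exoc5 overlap those of Ap5m1 and exons of Exoc7 those of the noncoding gene Gm26730, both on the opposite strand, and since the strand setting of the counting is not given in the sources used here, reads from the overlapped ends could not be assigned with certainty. Ap5m1 had total counts of 1775 at E11.5 and 2126 at E12.5 over 4 cortices.

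The start regions of 4 of the genes are shown because the report turns on them. These are Exoc2, whose cortices did not overlap between genotypes at either stage, Exoc4, and the paralogs Exoc6 and Exoc6b. The direction of Exoc4 turned between the stages, a change that did not pass the test. Each sequence runs 5′ to 3′ on the strand of the gene, from 250 bases before to 50 bases after the most upstream start in RefSeq (GRCm38.p6), at chr13:30973998-30974297 for Exoc2 (minus strand), chr6:33248878-33249177 for Exoc4 (plus strand), chr19:37550168-37550467 for Exoc6 (plus strand) and chr6:85069464-85069763 for Exoc6b (minus strand). Capitals mark matches, on either strand, to the GC box letters GGGCGG, the ETS core CCGGAAG or the YY1 type motif AAGATGGC, and no match of one motif overlapped a match of another.
Exoc2: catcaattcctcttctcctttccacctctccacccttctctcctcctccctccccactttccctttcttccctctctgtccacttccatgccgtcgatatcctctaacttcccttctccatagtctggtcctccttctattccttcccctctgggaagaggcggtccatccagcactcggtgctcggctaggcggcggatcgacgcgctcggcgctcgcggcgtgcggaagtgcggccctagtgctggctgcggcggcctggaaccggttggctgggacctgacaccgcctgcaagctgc
Exoc4: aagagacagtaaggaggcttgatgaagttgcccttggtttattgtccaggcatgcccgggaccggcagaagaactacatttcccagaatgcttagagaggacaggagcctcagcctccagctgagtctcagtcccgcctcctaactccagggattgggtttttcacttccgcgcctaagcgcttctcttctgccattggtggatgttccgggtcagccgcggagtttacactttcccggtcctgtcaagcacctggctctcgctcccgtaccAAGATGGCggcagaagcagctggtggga
Exoc6: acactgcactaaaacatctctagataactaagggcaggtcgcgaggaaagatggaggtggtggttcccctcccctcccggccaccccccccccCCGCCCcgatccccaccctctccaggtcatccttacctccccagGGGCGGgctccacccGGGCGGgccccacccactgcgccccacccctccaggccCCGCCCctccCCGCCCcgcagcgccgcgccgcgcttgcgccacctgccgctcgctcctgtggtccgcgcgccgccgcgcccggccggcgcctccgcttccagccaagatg
Exoc6b: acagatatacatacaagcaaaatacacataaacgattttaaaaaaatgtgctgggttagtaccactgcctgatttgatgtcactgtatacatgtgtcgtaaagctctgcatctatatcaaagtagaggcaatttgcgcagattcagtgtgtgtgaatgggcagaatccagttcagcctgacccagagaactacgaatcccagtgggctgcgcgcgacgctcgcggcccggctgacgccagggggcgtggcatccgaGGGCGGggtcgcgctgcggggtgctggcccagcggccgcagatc

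The start region of Exoc6 held 30 CpG dinucleotides and 5 GC box matches, and that of its paralog Exoc6b held 20 CpG dinucleotides and 1 GC box match. Over all 9 genes the number of CpG dinucleotides ran from 13 (Exoc4 and Exoc5) to 39 (Exoc8), against a median of 7 over 27025 mouse promoters of the same length. Fewer than 13 were found in 61.5% of all promoters and fewer than 39 in 95.7%. A GC box was found in 6 of the 9 start regions and in 35.9% of all promoters. The ETS core was found in 3 (Exoc1, Exoc3 and Exoc5) and in 9.14% of all promoters. The YY1 type motif was found in 2 (Exoc4 and Exoc7) and in 2.87% of all promoters. Exoc2, the gene with the smallest p over both stages, held none of these letters. A match is a description of the letters, and no binding was measured here.

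All 9 genes were expressed in every cortex and passed the filter on low counts at both stages. The lowest count was 288 (Exoc6 in E11.5 Mboat7-/- replicate 2) and the highest 2695 (Exoc3). The plot of CPM by cortex shows Exoc3 near the top and Exoc6 and Exoc8 at the bottom at both stages. Exoc4 lay below Exoc3 at E11.5 and above it at E12.5, and CPM is not scaled to transcript length.

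**Figure D1:**
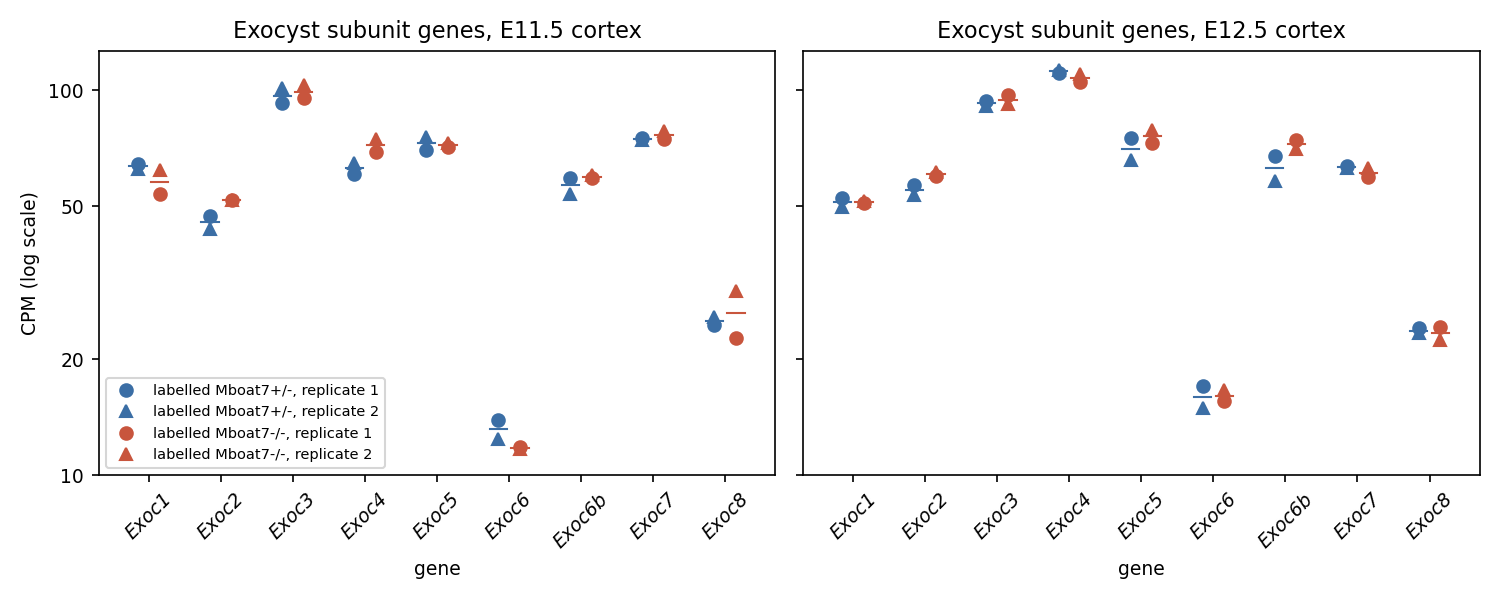
CPM on a log axis for the 9 exocyst genes in each cortex at E11.5 (left) and E12.5 (right), with blue points for Mboat7+/-, red points for cortices labelled Mboat7-/-, circles for replicate 1, triangles for replicate 2 and lines for the mean of 2. The genotypes lie close together for every gene, and Exoc4 lies between 60.7 and 74.7 CPM at E11.5 and between 105 and 113 CPM at E12.5.

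Levels of different genes can be compared only per transcript length, here as CPM per kb of the longest coding transcript, averaged over the 4 cortices of a stage. At E11.5, Exoc7, the Exo70 subunit, had the highest level per kb (22.6, range 22.3 to 23.4), followed by Exoc3 (19.9, range 18.8 to 20.9), Exoc1 (18.0, range 15.9 to 19.1) and Exoc4 (13.9, range 12.6 to 15.5). Exoc2 (11.1) and Exoc6b (10.7) came next, then Exoc5 (5.7) and Exoc8 (5.61), and Exoc6 was lowest at 3.52 (range 3.29 to 3.94). The ranges of neighbors overlapped for Exoc3 and Exoc1, for Exoc2 and Exoc6b and for Exoc5 and Exoc8, so those pairs have no clear order. At E12.5, on the same length, Exoc4 came first (22.8, range 21.8 to 23.4), before Exoc3 (18.9) and Exoc7 (18.6), whose ranges overlapped. Exoc1 (15.2), Exoc2 (13.2) and Exoc6b (12.4) followed, then Exoc5 (5.76), Exoc8 (5.13) and Exoc6 (4.53), with overlap for Exoc2 and Exoc6b and for Exoc5 and Exoc8. The order depended on the length chosen. With the union of all exons of a gene as its length, Exoc1 moved from rank 3 to rank 6 and Exoc8 from rank 8 to rank 4 at E11.5, while Exoc7 and Exoc3 stayed first and second and Exoc6 last. At E12.5, Exoc4 moved from rank 1 to rank 3 (8.68, behind Exoc3 at 15.6 and Exoc7 at 14.2), Exoc1 from rank 4 to rank 8, Exoc6 from rank 9 to rank 6 and Exoc5 from rank 7 to rank 9.

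**Figure D2:**
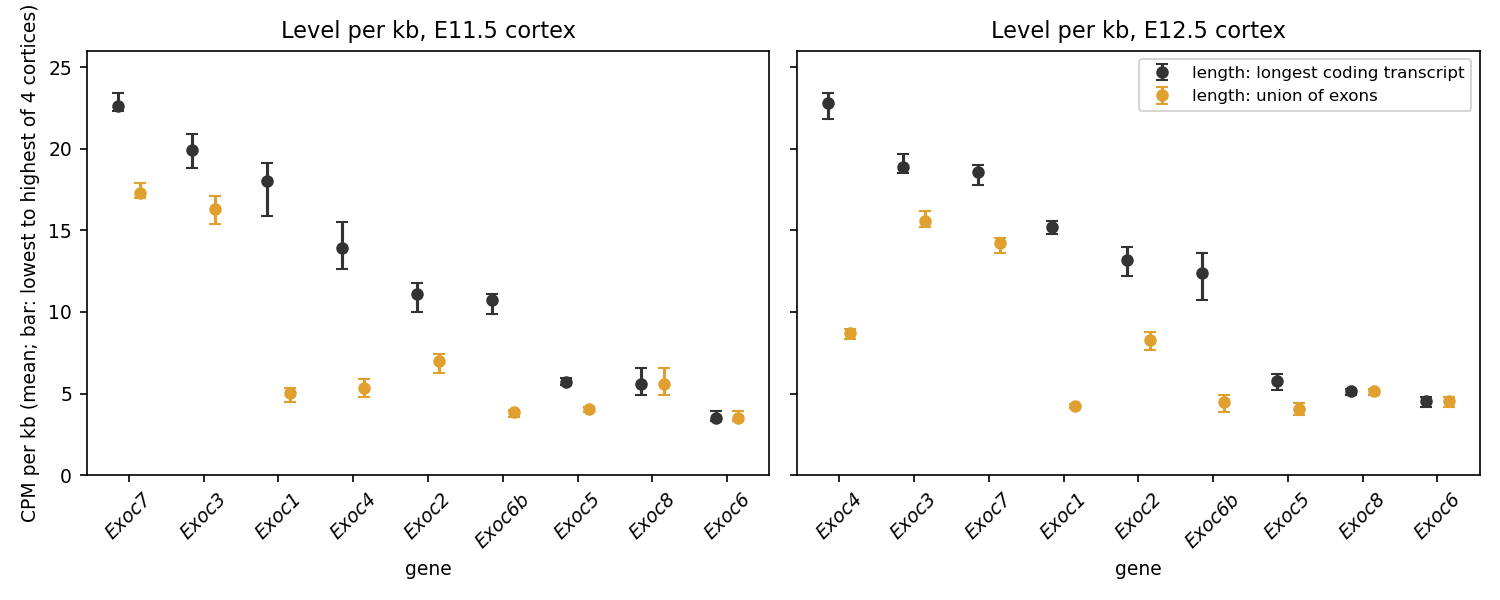
CPM per kb for each exocyst gene at E11.5 (left) and E12.5 (right), ordered by the level on the longest coding transcript; points are means and bars run from the lowest to the highest of 4 cortices. Black points use the longest coding transcript and orange points the union of exons: Exoc7 reads 22.6 and 17.3 at E11.5, and Exoc1 reads 18.0 and 5.03.

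None of the 9 genes was called between the genotypes at E11.5, where 0.0% of all 14935 genes tested were called, and none at E12.5, where 0.0184% of 16326 genes were called (3 genes). At an unadjusted p under 0.05, 1 exocyst gene (Exoc4, higher) was found at E11.5, where 13.8% of all genes were, and 0 at E12.5, where 4.11% were. The median log2 fold change of the 9 genes was 0.035 (E11.5) and 0.017 (E12.5), beside -0.006 and 0.005 over all genes tested, and it was -0.038 and -0.047 after each library was corrected for a dependence on transcript length and GC content. The median absolute log2 fold change was 0.0767 (E11.5) and 0.0476 (E12.5), beside 0.148 and 0.114 over all genes, which include many with lower counts and larger counting error. The 95% intervals of the 9 differences reached no further from 0 than 0.54 on the log2 scale at E11.5 (Exoc6) and 0.43 at E12.5 (Exoc6b), so a difference of 1 on this scale lay outside every interval. Differences smaller than these bounds were not settled with 2 cortices a genotype.

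**Figure D3:**
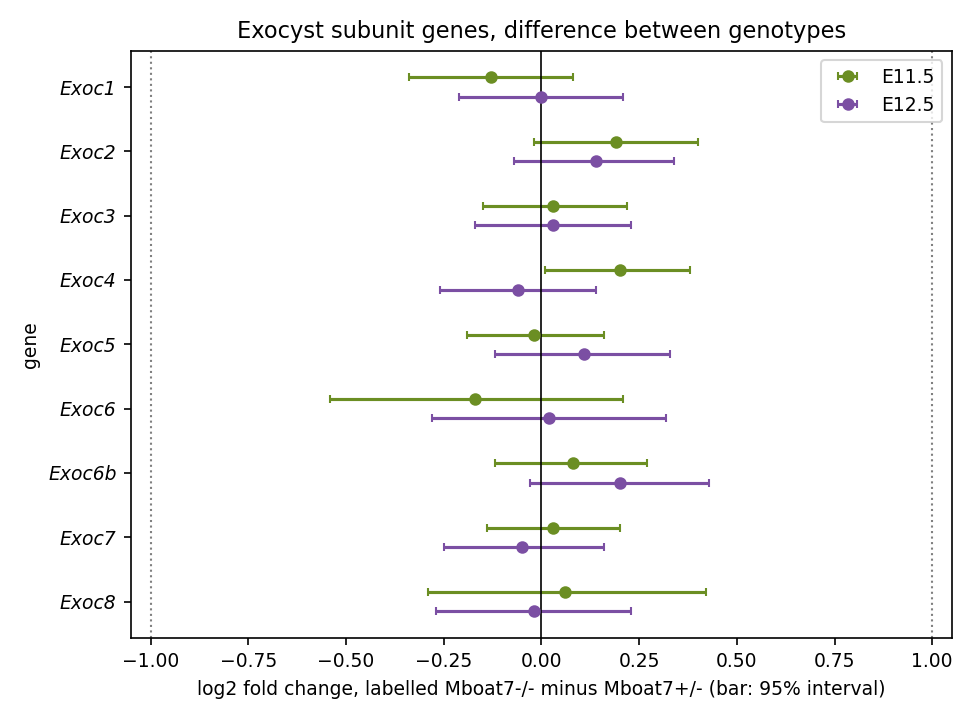
Log2 fold change of each exocyst gene, cortices labelled Mboat7-/- minus Mboat7+/-, with its 95% interval from edgeR, at E11.5 (green) and E12.5 (purple); the dotted lines mark -1 and 1. All points lie between -0.17 and 0.20, and only the E11.5 interval of Exoc4 (0.01 to 0.38) does not include 0.

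Among the subunits of the first subcomplex, Exoc2 and Exoc4 were the furthest above the controls at E11.5. Exoc2, the Ral-binding subunit, was at 47.1 and 43.6 CPM in the Mboat7+/- cortices and at 51.8 and 51.8 CPM in those labelled Mboat7-/-. Both libraries labelled Mboat7-/- lay above both controls, and the difference did not pass the test (log2 fold change 0.19, standard error 0.09, adjusted p = 0.401). At E12.5, Exoc2 was at 56.7 and 53.4 CPM against 59.8 and 61.2 CPM, again with no overlap (log2 fold change 0.14, standard error 0.09, adjusted p = 0.958). Fitted over both stages with stage as a term, the difference was 0.17 (95% interval 0.04 to 0.30), with an unadjusted p of 0.0166 and an adjusted p of 0.388 from edgeR. In that fit 0.0% of 14977 genes were called and 11.3% had an unadjusted p under 0.05, so a p of this size was not rare among all genes. It was 0.10 after the length and GC correction, with an unadjusted p of 0.122.

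Exoc4, the Sec8 subunit, was at 60.7 and 64.7 CPM in the E11.5 Mboat7+/- cortices and at 69.0 and 74.7 CPM in those labelled Mboat7-/-, again without overlap (log2 fold change 0.20, standard error 0.08, adjusted p = 0.342). At E12.5 it was at 111 and 113 CPM against 105 and 110 CPM. This put both libraries labelled Mboat7-/- below both controls, by little in the case of 110 CPM (log2 fold change -0.06, standard error 0.09, adjusted p = 0.967 from edgeR). Such a turn, without overlap at either stage, was seen in 345 of 13642 genes (2.53%). The difference between the stages was -0.26 (standard error 0.11, 95% interval -0.51 to -0.01), with an unadjusted p of 0.0458 and an adjusted p of 0.853 for the interaction of stage and genotype, where 0.0% of genes were called and 5.7% had an unadjusted p under 0.05. Mboat7 turned in the same way, as given above.

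Exoc1, which binds PI(4,5)P2, was at 64.3 and 62.4 CPM against 53.8 and 62.0 CPM at E11.5. The libraries labelled Mboat7-/- lay below the controls, replicate 2 by little (log2 fold change -0.13, standard error 0.09, adjusted p = 0.567), and without E11.5 Mboat7-/- replicate 1, the library with the lowest neuron sum, the difference was -0.03, and without Mboat7-/- replicate 2 it was -0.24 (adjusted p = 0.180). At E12.5 the values of Exoc1 were 52.5 and 49.8 against 51.0 and 51.6 CPM, which overlapped (log2 fold change 0.00, standard error 0.09). Exoc3, the Sec6 subunit, was at 92.4 and 101 against 95.3 and 103 CPM at E11.5 and at 93.7 and 91.0 against 97.1 and 91.8 CPM at E12.5. Its log2 fold change was 0.03 at each stage, and the values of the genotypes overlapped at both stages.

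In the second subcomplex, Exoc6b was the gene with the largest difference at E12.5. It was at 67.6 and 58.1 CPM in the Mboat7+/- cortices and at 74.2 and 70.4 CPM in those labelled Mboat7-/-, without overlap (log2 fold change 0.20, standard error 0.10, adjusted p = 0.958). The value rested on the control libraries, being 0.10 without E12.5 Mboat7+/- replicate 2 and 0.32 without E12.5 Mboat7+/- replicate 1. The description of E12.5 Mboat7+/- replicate 2 names the column of replicate 1, so the number of each control there rests on the titles and column names. At E11.5, Exoc6b was at 59.3 and 53.8 against 59.1 and 60.1 CPM, which overlapped (log2 fold change 0.08, standard error 0.09, adjusted p = 0.732). Exoc6, the paralog, was at 13.9 and 12.4 against 11.8 and 11.7 CPM at E11.5, with both libraries labelled Mboat7-/- below the controls (log2 fold change -0.17, standard error 0.16, adjusted p = 0.693). At E12.5 it was at 17.0 and 14.9 against 15.6 and 16.6 CPM, with overlap (log2 fold change 0.02, standard error 0.14, adjusted p = 0.989).

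Exoc7, whose product brings the complex to PI(4,5)P2, was at 75.1 and 74.3 against 74.7 and 78.2 CPM at E11.5 (log2 fold change 0.03, 95% interval -0.14 to 0.20, adjusted p = 0.879). At E12.5 it was at 63.5 and 62.7 against 59.5 and 62.6 CPM, with both libraries labelled Mboat7-/- below the controls, by little in the case of 62.6 CPM (log2 fold change -0.05, standard error 0.09, adjusted p = 0.972). Exoc5, the Sec10 subunit, was at 70.0 and 75.6 against 71.1 and 73.0 CPM at E11.5 and at 75.0 and 66.0 against 72.8 and 78.9 CPM at E12.5, with overlap at both stages (log2 fold changes -0.02 and 0.11). Exoc5 has the longest coding transcript of the 9 genes (12699 nt) and the lowest GC content (38.05%), and after the same correction its E11.5 difference was -0.27 (unadjusted p 0.00531, adjusted p = 0.518). Exoc8, which like Exoc2 binds Ral GTPases, was at 24.6 and 25.8 against 22.7 and 30.1 CPM at E11.5, and the libraries labelled Mboat7-/- were 1 below and 1 above both controls. At E12.5 it was at 24.1 and 23.4 against 24.3 and 22.5 CPM (log2 fold change -0.02, standard error 0.11, adjusted p = 0.986).

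In all, the genotypes did not overlap for 4 of the 9 genes at E11.5 (Exoc2 and Exoc4 higher, Exoc1 and Exoc6 lower), where 46.4% of all genes tested did not overlap (23.1% higher and 23.3% lower), and for 4 at E12.5 (Exoc2 and Exoc6b higher, Exoc4 and Exoc7 lower), where 32.0% did not (16.9% higher and 15.2% lower). Exoc2 was the single exocyst gene without overlap in the same direction at both stages, as were 4.74% of 13642 genes in the higher direction. No exocyst gene was lower without overlap at both stages, as 4.9% of genes were. The median difference between the 2 cortices of a genotype was 0.108 and 0.0648 on the log2 scale for the exocyst genes at E11.5 (Mboat7+/- and Mboat7-/-) and 0.0749 and 0.0748 at E12.5, beside 0.123 to 0.154 over all genes. The largest was 0.398, for Exoc8 in the E11.5 cortices labelled Mboat7-/-. The plot of fold change against level places the 9 genes among all genes of similar level.

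**Figure D4:**
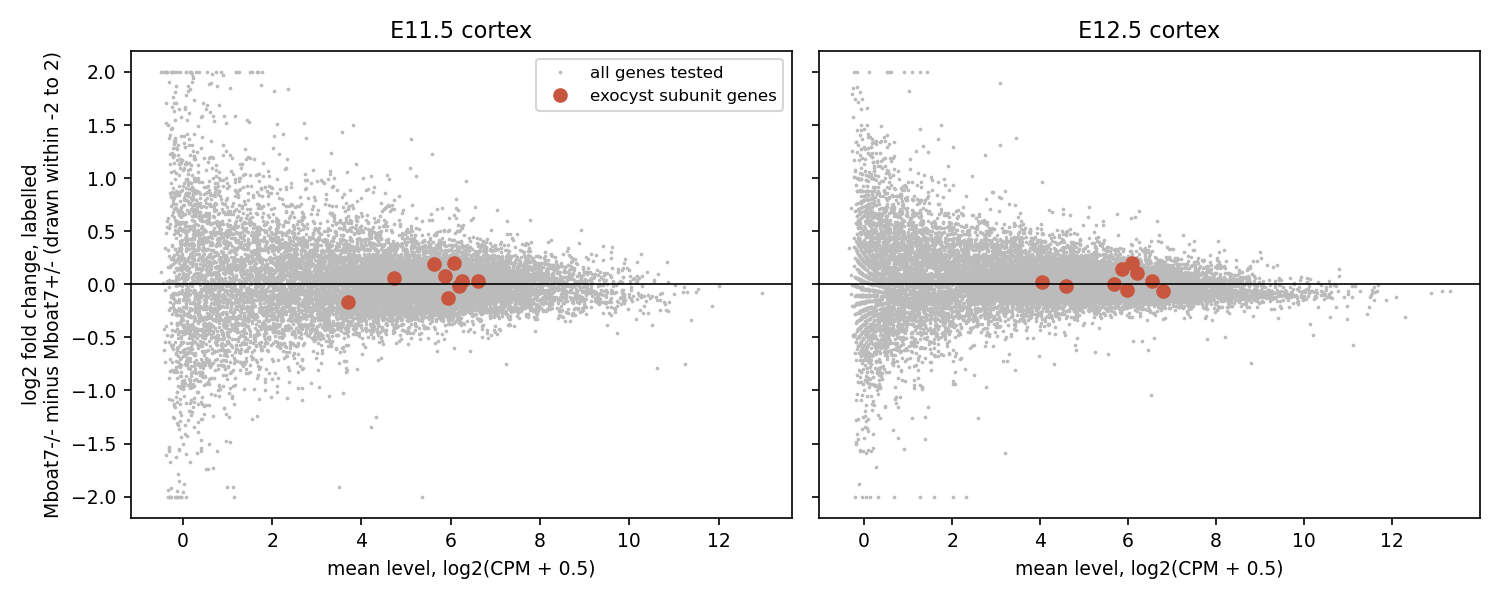
Log2 fold change (cortices labelled Mboat7-/- minus Mboat7+/-, values beyond -2 and 2 drawn at those limits) against the mean level as log2(CPM + 0.5) for every gene tested (grey) and the exocyst genes (red) at E11.5 (left, 14935 genes) and E12.5 (right, 16326 genes). The exocyst genes lie inside the cloud of genes of similar level, between -0.17 and 0.20 at E11.5 and between -0.06 and 0.20 at E12.5.

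Exoc6 and Exoc6b occupy the same place in the complex, so their counts were set against each other within each cortex, a choice made after the levels were seen and given with no test. The count of Exoc6b was 4.25 and 4.33 times that of Exoc6 in the E11.5 Mboat7+/- cortices and 5.01 and 5.16 times in those labelled Mboat7-/-. At E12.5 the ratio was 3.97 and 3.91 against 4.75 and 4.24. The cortices labelled Mboat7-/- had the higher ratio at each stage without overlap, by 0.24 at E11.5 and 0.19 at E12.5 on the log2 scale, and within each replicate number the difference was 0.23 and 0.25 at E11.5 and 0.26 and 0.12 at E12.5. Of the 36 pairs that 9 genes form, 17 did not overlap in their ratio at E11.5 and 16 at E12.5. In the same direction at both stages, 5 did not overlap, namely Exoc1 with Exoc2, Exoc1 with Exoc6b, Exoc2 with Exoc6, Exoc2 with Exoc7 and Exoc6 with Exoc6b. The share over all pairs of genes was not determined, so these counts have no background. The ratios were not corrected for transcript length and GC content, which differ between Exoc6b (5439 nt, 48.04%) and Exoc6 (3543 nt, 43.44%). With that correction the log2 fold change of Exoc6b turned to -0.04 at E11.5 and kept its direction at E12.5. That of Exoc6 turned below 0 at E12.5, and at E11.5 it stayed between -0.24 and -0.08 over all alternatives. Per kb of the longest coding transcript, Exoc6b exceeded Exoc6 by a factor between 2.54 and 3.36 in every cortex. Per kb of the union of exons the factor lay between 0.915 and 1.21, so which paralog is the more abundant depended on the length chosen.

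**Figure D5:**
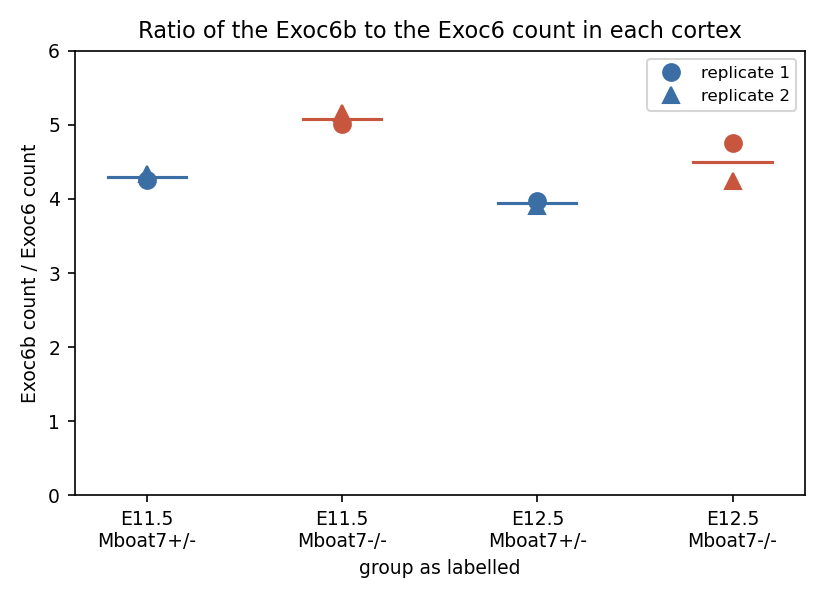
Count of Exoc6b divided by the count of Exoc6 in each of 8 cortices (circles replicate 1, triangles replicate 2, lines the mean of 2), by stage and labelled genotype. The ratio lies between 3.91 and 4.33 in the Mboat7+/- cortices and between 4.24 and 5.16 in those labelled Mboat7-/-.

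Between the stages, with the libraries of both normalized together on the shared genes, 7 of the 9 genes were higher at E12.5 than at E11.5. Exoc4 had the largest ratio, 1.89, running from 58.1 to 71.6 CPM over the E11.5 cortices and from 117 to 126 CPM over the E12.5 cortices, and 20.3% of 14977 genes had a larger absolute difference. The ratio was 1.48 for Exoc6, 1.38 for Exoc2 and 1.35 for Exoc6b. It was 1.17 for Exoc5, 1.11 for Exoc3 and 1.06 for Exoc8. Exoc1 (0.982) and Exoc7 (0.954) were slightly lower at E12.5. The stages did not overlap for 7 of the 9 genes, all but Exoc1 and Exoc8, as for 59.0% of all genes, and the median absolute log2 difference of all genes was 0.403. The provider, the platform and the annotation changed with the stage, so their parts in these ratios and that of the embryonic day cannot be told apart.

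The average of the 9 genes moved little between cortices. Their mean deviation from the stage average ran from -0.07 on the log2 scale in E12.5 Mboat7+/- replicate 2 to 0.068 in E11.5 Mboat7-/- replicate 2. Of 13619 genes, those nearest to this average profile, by the root mean square difference of log2 CPM centered within each stage over 8 cortices, were Zfyve1 (0.0148), which encodes a FYVE domain protein, Gnaq (0.0193), a G protein alpha subunit, Cdh2 (0.0206), which encodes N-cadherin, Lsg1 (0.0213), a GTPase of ribosome assembly, and Zmiz1 (0.022), a transcriptional coregulator. These genes were named for being nearest. The members themselves were at 0.0406 (Exoc7, rank 141 of the 13619 genes) to 0.0886 (Exoc6, rank 2984).

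The genes around the exocyst were taken from fixed lists, and none of them was called at either stage. Of 20 GTPases that bind the exocyst and their regulators, 1 had an unadjusted p under 0.05 at E11.5 and 0 at E12.5, beside 13.8% and 4.11% of all genes. That gene was Rab11b, a GTPase of recycling vesicles, at 218 and 214 against 187 and 194 CPM at E11.5 (log2 fold change -0.18, standard error 0.06, adjusted p = 0.267) and with a log2 fold change of -0.04 at E12.5. Ralgps1, an exchange factor that activates Ral, was at 7.39 and 7.93 against 8.81 and 13.0 CPM at E11.5 and at 57.2 and 48.6 against 56.0 and 69.5 CPM at E12.5, and its difference over both stages was 0.36 (unadjusted p 0.0129, adjusted p = 0.381). Rgl1, another Ral activator, differed by 0.12 and 0.18 on the log2 scale. For the whole list the median was -0.005 (E11.5) and 0.04 (E12.5).

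The type I PI4P 5-kinases make PI(4,5)P2, the lipid that Exoc1 and Exoc7 bind. Pip5k1c was at 199 and 191 against 179 and 194 CPM at E11.5 and at 152 and 145 against 140 and 157 CPM at E12.5, with overlapping genotypes at both stages. Pip5k1a was at 37.3 and 33.5 against 40.5 and 37.1 CPM at E11.5 and at 48.7 and 45.6 against 51.9 and 49.9 CPM at E12.5, a difference of 0.13 over both stages (95% interval -0.02 to 0.27, unadjusted p 0.0891). Pip5k1b was the lowest, between 3.94 and 5.5 CPM, and differed by -0.17 (E11.5) and 0.10 (E12.5) on the log2 scale. None of the 3 kinases had an unadjusted p under 0.05 at E11.5 or E12.5, beside 13.8% and 4.11% of all genes.

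Of 8 genes for cadherins, catenins and Par3, 2 had an unadjusted p under 0.05 at E11.5, both higher, and 0 at E12.5, beside 13.8% and 4.11% of all genes. They were Ctnnd1, encoding p120 catenin, at 222 and 215 against 244 and 255 CPM (log2 fold change 0.19, adjusted p = 0.249), and Ctnnb1, encoding beta-catenin, at 1270 and 1300 against 1390 and 1400 CPM (log2 fold change 0.12, adjusted p = 0.350). At E12.5 their log2 fold changes were -0.01 and -0.09. Ctnna2, a neural alpha-catenin, had log2 fold changes of -0.22 and 0.09. Cdh2 was at 350 and 357 against 354 and 385 CPM at E11.5 and at 420 and 408 against 426 and 423 CPM at E12.5, with log2 fold changes of 0.07 and 0.04.

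Cdh1, encoding E-cadherin, had 270 and 268 counts in the E11.5 Mboat7+/- cortices (11.3 ± 1.66 CPM, SD, n = 2) and was at 14.1 and 14.5 CPM in those labelled Mboat7-/- (log2 fold change 0.35, standard error 0.17, adjusted p = 0.429). At E12.5 it was at 1.06 and 0.695 against 0.825 and 0.619 CPM, and the difference was -0.27 on the log2 scale (standard error 0.45, adjusted p = 0.969). A list of 8 surface epithelium genes that includes Cdh1, added after these values were seen, summed to 59.7 and 51.0 against 88.4 and 65.2 CPM at E11.5 and to between 6.45 and 7.73 CPM at E12.5. The sum contains Cdh1 itself, so the values are not independent. Both Cdh1 and the sum were lower at E12.5 and, at E11.5, higher in the cortices labelled Mboat7-/-. Between those cortices the order differed, with the sum higher in replicate 1 and Cdh1 slightly higher in replicate 2. In replicate 2, Krt18 of this list was below both controls (193 counts against 207 and 285). The part of the epithelial genes in the difference of Cdh1 was not tested.

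Of the SNAREs and Munc18 proteins of the plasma membrane, which fuse the vesicles that the exocyst has tethered, 10 of 12 were tested at E11.5 and 11 at E12.5. Snap25, a SNARE abundant in neurons, had the smallest p at E11.5. It was at 16.7 and 19.6 against 8.74 and 12.1 CPM (log2 fold change -0.80, standard error 0.20, adjusted p = 0.194), beside neuron markers that were lowest in the same library, and their part was not tested. At E12.5 Snap25 was at 20.6 and 15.5 against 18.7 and 23.7 CPM, which overlapped. The Munc18 gene Stxbp2 had a log2 fold change of 0.17 at E11.5 and of 0.03 at E12.5, and Stxbp3, not matched at E11.5, was at 9.95 and 9.03 against 11.3 and 13.0 CPM at E12.5 (log2 fold change 0.36, adjusted p = 0.958).

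Other tethering complexes, COG at the Golgi, GARP and EARP on endosomes and the trans-Golgi and NRZ at the endoplasmic reticulum, were represented by 16 genes. Of these, 0 had an unadjusted p under 0.05 by edgeR at E11.5 or E12.5, beside 13.8% and 4.11% of all genes. Their median log2 fold change was 0.011 (E11.5) and -0.028 (E12.5), near the 0.035 and 0.017 of the exocyst genes. Cog5 was the furthest from 0 at E11.5, at 19.8 and 18.3 against 23.0 and 23.3 CPM (log2 fold change 0.28, adjusted p = 0.396), followed by Rint1 of NRZ (0.27, adjusted p = 0.421). At E12.5, Vps51 of GARP and EARP had a log2 fold change of 0.12 and Nbas of NRZ one of -0.10. The genes related to Exoc3 that are not part of the complex were low, with Tnfaip2 between 1.71 and 5.13 CPM, Exoc3l4 between 0.309 and 3.68 CPM and Exoc3l2 between 3.05 and 4.71 CPM at E12.5. At E11.5 Tnfaip2 and Exoc3l4 were higher without overlap in the cortices labelled Mboat7-/-, as 23.1% of all genes tested were. The differences were 0.43 and 0.57 on the log2 scale (adjusted p = 0.515 and 0.544 by edgeR). At E12.5 the log2 fold changes were 0.01 for Tnfaip2, -0.69 for Exoc3l4 and -0.43 for Exoc3l2, and the change between the stages did not pass the interaction test (adjusted p = 0.934 for Tnfaip2 and 0.862 for Exoc3l4).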

How the data were processed

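RNA of 8 cortices was read from 1 table per stage. The authors deposited raw read counts per gene, without normalization, with 1 column per embryo. Libraries were poly(A)-selected and directional per the labels. The submitters' processing notes name HISAT2, Subread, mm10 and GRCm39, without saying which build belongs to which table. Genes are named by symbol at E11.5 and by Ensembl identifier at E12.5, and the names were joined through GENCODE M21 (GRCm38), which also gave positions, lengths and GC content. Start regions were taken from RefSeq (GRCm38.p6).

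The stages were fitted separately in edgeR 4.0.16 under R 4.3.3 (TMM, the filterByExpr filter at a minimum count of 10, prior count 0.125, quasi-likelihood test, Benjamini-Hochberg adjustment over all genes tested). Further fits over the shared genes had stage as a term, alone or with its interaction with genotype. The depth of each cortex, between 20799311 and 28189771 counts, and the 2 cortices a genotype limit the precision.

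Exocyst members, lists and tests were chosen with earlier results of these data known. Named were the 9 members, Mboat7, Xist, Cdh1, Cdh2 and the 3 type I PI4P 5-kinases, the 2 genes with the smallest p at each stage of each other pathway list, and the 5 genes nearest to the members' mean profile. A gene that this rule names is not reported here. Motifs, the ratio of Exoc6b to Exoc6 and the surface epithelium list were chosen after values were seen.

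Alternatives were RLE normalization, DESeq2 1.42.0, no filter, the replicate number as a block, removal of each library's dependence on transcript length and GC content (splines of 5 degrees of freedom) with and without the block, and leaving out each cortex. Replicate numbers also stand in the labels as the batch, whose kind is not stated, and were therefore taken as pairs in the block settings. The main fits, which gave the values above unless a setting is named, had no term for them. Across genes, the deviations of cortices with the same number correlated at 0.08 (E11.5) and -0.2 (E12.5). Cortices of 1 genotype differed by more than sampling noise (chi-square per degree of freedom 8.35 to 14.3). The fits were tested on simulated data. Tables and figures used Python 3.11.15, pandas 2.3.3, numpy 2.4.6 and matplotlib 3.10.9.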

Additional observations from a re-analysis of the deposited data

Results flagged for a closer look

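Exoc4 and Mboat7 were flagged because both knockout-labelled cortices lay above both controls at E11.5 and below both at E12.5. This turn was not particular to them: it was also seen in Ctnnb1 and Exoc3l4, and in 345 of 13642 genes (2.53%). Snap25 changed more between the stages, by 1.04, in the opposite direction (adjusted p = 0.595 in edgeR's interaction test). The log2 fold change at E12.5 minus that at E11.5 was -0.26 for Exoc4 (95% interval -0.51 to -0.01) and -0.34 for Mboat7 (95% interval -0.66 to -0.03). In edgeR's interaction test the adjusted p was 0.853 and 0.849, so neither difference passed the correction. For Exoc4 the adjusted p lay between 0.669 and 1.0 over the alternatives.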

How the results depend on the processing

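None of the 9 exocyst genes was called in any of the 4 comparisons under any alternative that gave an adjusted p, while the count over all genes moved with the setting. At E11.5, where 0 genes were called, DESeq2 called 168, no filter 317, the replicate block 349 and the length and GC trend removed with the block 7, and leaving out 1 cortex gave 1 to 1131, the highest without Mboat7-/- replicate 2. At E12.5, where 3 were called, DESeq2 called 10, no filter 0, the replicate block 21 and the trend removed with the block 52, and leaving out 1 cortex gave 35 to 245, the highest without Mboat7-/- replicate 1. Over both stages, where 0 were called, DESeq2 called 10 and no filter 97, and leaving out 1 cortex gave 0 to 7. For the interaction, where 0 were called, DESeq2 called 14, no filter 69 and the trend removed with the block 2, and leaving out 1 cortex gave 0 to 136. In these last fits the lone cortex of a group is assumed to vary like the others. The causes were not tested. With the replicate numbers of the genotypes crossed at E12.5, a choice made after seeing the data, the block called 148 genes. The replicate block changed no call of an exocyst gene.

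After removal of the length and GC trend, the median log2 fold change of the exocyst genes was -0.038 (E11.5), -0.047 (E12.5) and -0.018 (both stages together;with the replicate block -0.037, -0.049 and -0.023). Genes whose direction turned, by the same value with and without the block, were Exoc3 (-0.06) and Exoc6b (-0.04) at E11.5, Exoc3 (-0.02), Exoc5 (-0.10) and Exoc6 (-0.05) at E12.5, and Exoc3 (-0.04), Exoc5 (-0.18) and Exoc8 (-0.02) over both stages. The median with 1 cortex left out ran from -0.02 to 0.088 (E11.5), from -0.033 to 0.053 (E12.5), from 0.009 to 0.069 (both stages) and from -0.07 to 0.133 for the interaction.

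Leaving out 1 cortex also turned genes near 0. At E11.5 the range was -0.02 to 0.11 for Exoc3, -0.07 to 0.05 for Exoc5 and -0.15 to 0.25 for Exoc8, and at E12.5 it was -0.01 to 0.07 for Exoc3, -0.08 to 0.12 for Exoc6 and -0.08 to 0.04 for Exoc8. For Exoc8 it was -0.07 to 0.10 over both stages and -0.29 to 0.13 for the interaction. The lowest Exoc8 values at E11.5 and over both stages, and the highest for the interaction, came without E11.5 Mboat7-/- replicate 2. Without E11.5 Mboat7+/- replicate 1, the cortex with Xist, Exoc2 was at 0.25 and Exoc4 at 0.16 at E11.5. Exoc2 kept its direction in all 3 comparisons between genotypes (0.08 to 0.25) and Exoc4 at E11.5 (0.11 to 0.25).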
